A study of Mus musculus with 7 samples.

Results

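The genes described here are 46 interferon-stimulated genes, measured in soft tissue of the mouse jaw at a healing drill hole. They were taken by symbol from a named list, which was drawn up with earlier results of these data known and sets no threshold on measured values, and all 46 were found among the 49164 gene rows with counts. The list holds 34 genes of the type I interferon response and 12 genes of the interferon-gamma response. The study sequenced polyadenylated RNA from muscle and soft callus next to a 1.5-mm hole in the mandible, on day 5 after drilling. IL17KO mice carry the genotype Il17af-/-, a deletion of the genes for the cytokines interleukin-17A and interleukin-17F, and gave 3 libraries. WT mice were their littermates, had the same hole and gave 4 libraries. No undrilled tissue was analysed here, and the labels used here give no age, sex or strain. They do not say whether the libraries come from different animals, and a p-value here reflects spread among libraries that may be technical.

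Total counts were 25117173, 24575664 and 25814761 in IL17KO replicates 1 to 3, against 21784565, 18539904, 18925451 and 26271176 in WT replicates 1 to 4. A floor of 3 counts was 0.111 to 0.162 CPM, the unit of every level given here (reads of a gene relative to the TMM-scaled size of its library), and it covers counting error only. Il17a had 0 counts in all 7 libraries, and Il17f had 1, 1 and 0 counts in IL17KO tissue against 0 in every WT library, so neither gene can check the genotype labels at this depth. Markers of the labelled tissue were abundant: the 18 skeletal muscle markers summed to between 30823 and 103978 CPM in IL17KO libraries, against 15179 to 52459 CPM in WT libraries, and the 14 callus and fibroblast markers to between 27480 and 56145 CPM in IL17KO and 34406 to 57408 CPM in WT. Col2a1, the cartilage collagen, was at most 1.19 CPM in any library. IL17KO replicate 3 and WT replicate 3 lay at the ends of the main axis of variation over all genes, which carried 50.1% of the variance.

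Interferons are secreted proteins that put cells in an antiviral and inflammatory state. Type I interferons act through the Ifnar1 and Ifnar2 receptor chains and the kinases Jak1 and Tyk2, which activate a complex with Stat2 and Irf9 that binds interferon-stimulated response elements (ISRE). Interferon-gamma, made mainly by T and natural killer cells, acts through Ifngr1, Ifngr2 and the kinases Jak1 and Jak2, and its signal reaches gamma-activated sites (GAS) in target promoters. Many target genes answer both kinds of interferon, so the 2 classes are not sharply separate.

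Promoter sequences are shown for 6 members of different roles, because they carry the letters through which interferon signals are known to reach these genes. Each line gives the 120 bases before the start site from RefSeq on GRCm38.p6, 5′ to 3′ on the gene's own strand, with matches in capitals. An ISRE-like match was GAAA, any 2 bases and GAAA again, and a GAS-like match was TTCNNNGAA, searched on both strands, over 250 bases before to 50 after the start site.
Isg15: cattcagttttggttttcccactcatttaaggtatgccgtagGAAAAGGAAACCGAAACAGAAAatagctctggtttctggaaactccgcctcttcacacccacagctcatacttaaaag
Ifit1: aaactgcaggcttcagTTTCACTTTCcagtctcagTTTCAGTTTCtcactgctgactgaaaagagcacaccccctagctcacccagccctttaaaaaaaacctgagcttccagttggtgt
Rsad2: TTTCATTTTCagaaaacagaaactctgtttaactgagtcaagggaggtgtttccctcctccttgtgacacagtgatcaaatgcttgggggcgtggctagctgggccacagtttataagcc
Oas3: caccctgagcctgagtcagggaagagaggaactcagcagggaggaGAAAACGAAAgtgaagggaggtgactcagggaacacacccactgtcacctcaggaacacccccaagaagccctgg
Gbp2: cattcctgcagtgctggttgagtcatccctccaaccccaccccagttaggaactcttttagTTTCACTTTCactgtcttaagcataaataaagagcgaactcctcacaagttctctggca
Irf1: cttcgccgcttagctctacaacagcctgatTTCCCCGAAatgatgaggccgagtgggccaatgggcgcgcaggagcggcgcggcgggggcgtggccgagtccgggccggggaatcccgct

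These stretches lie at chr4:156200819-156200938 on the minus strand for Isg15, chr19:34640769-34640888 on the plus strand for Ifit1 and chr12:26456453-26456572 on the minus strand for Rsad2. Those of Oas3, Gbp2 and Irf1 lie at chr5:120777660-120777779 on the minus strand, chr3:142620543-142620662 on the plus strand and chr11:53769894-53770013 on the plus strand. Isg15 held a run of 3 overlapping ISRE-like matches beginning 78 bases before the start site, and Ifit1 held 2 that do not overlap. The Irf1 window shown held a GAS-like match and no ISRE-like match. It was chosen for that GAS-like match, and the other Irf1 window held neither. Of the 46 members, 36 had a window in the RefSeq table; Dhx58, Iigp1, Mx1, Mx2, Oas2, Parp9, Parp14, Rtp4, Usp18 and Zbp1 had none. Some members had several windows, and a gene was counted if any of its windows held a match. An ISRE-like match was in 20 of the 36 members with a window (55.6%), against 1079 of all 27025 genes with a window (3.99%). A GAS-like match was in 11 of 36 (30.6%), against 9.55% of all genes. By class, ISRE-like matches were in 11 of 25 type I members (44.0%) and in 9 of 11 interferon-gamma members (81.8%), and GAS-like matches in 6 of 25 and 5 of 11. An ISRE-like and a GAS-like match overlapped in Bst2 and in no other member. A match describes letters only and is not evidence of a bound site, and a window without one says nothing about the factors.

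All 46 members were expressed in all 7 libraries, and none was called between IL17KO and WT. Their mean over the 7 libraries ran from 1.86 CPM for Mx2 to 91.1 CPM for Samhd1, with no correction for transcript length. All 46 were among the 15399 genes tested. By edgeR's quasi-likelihood test 0 of 46 had an adjusted p under 0.05, against 24 of the 15399 tested genes (0.156%), and the adjusted p of the members lay between 0.987 and 0.995. DESeq2 and limma voom with quality weights also called 0 of 46. Over all genes DESeq2, which took every gene with a count, called 0.204% of 28443, and limma voom called 0.422% of 15399. An unadjusted p under 0.05 was reached by 1 of 46, Trim30a, against 3.04% of tested genes. In none of the 46 did the 3 IL17KO values lie wholly above or below the 4 WT values, against 3.89% of tested genes. The log2 fold change of IL17KO over WT was below 0 for 45 of 46 members, against 49.4% of tested genes, and had a median of −0.23 over the members and 0.003 over all tested genes. The members vary together from library to library, so 45 of 46 is not 45 separate observations. Leaving out WT replicate 3 left 31 of 46 below 0, and leaving out IL17KO replicate 1 left 33. Exons of 19 members overlap those of another gene in the GRCm38 annotation, 11 on the opposite strand and 8 on the same strand, and the sources used here do not give the strand setting of the counting. The widest overlaps as a share of the member were in Ifi35 (16.8%, opposite strand), Rtp4 (13.9%) and Herc6 (13.7%, both same strand), and Igtp and Irgm2 share 162 bases on the same strand, so the levels of such members are uncertain to that extent.

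**Figure D1:**
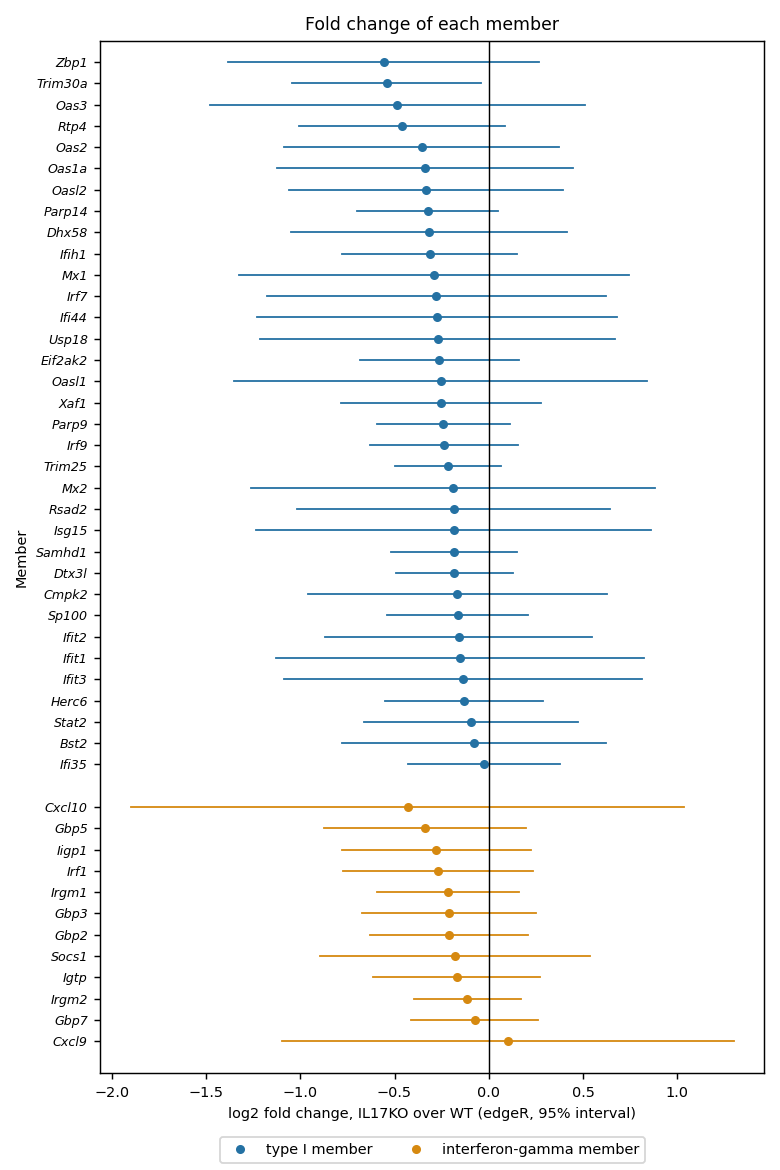
Log2 fold change of IL17KO over WT for the 46 members (x axis, edgeR; points are estimates and lines 95% intervals), with type I members above and interferon-gamma members below. The intervals of all members other than Trim30a span 0, and Cxcl9 is the one estimate above 0.

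The ligands themselves were at the limit of detection. Of 20 interferon genes in the table, 17 had 0 counts in all 7 libraries and no gene exceeded 2 counts in any library. Ifng had 2, 1 and 2 counts in IL17KO libraries, against 2, 0, 0 and 2 in WT libraries. Ifnb1, the early type I interferon, had 0 counts in each IL17KO library, against 2, 0, 1 and 0 in WT. No fold is given, because every library was under 3 counts. The signalling apparatus was present in every library. The interferon receptors had 5 of 6 genes tested and 0 called in either direction. Ifnar1 had 74.3, 94.9 and 64.1 CPM in IL17KO, against 77.0, 82.3, 105.5 and 82.1 CPM in WT. Ifnar2 had 29.2, 32.6 and 23.8 CPM in IL17KO, against 30.9, 33.6, 40.6 and 33.2 CPM in WT, with a log2 fold change of −0.28 ± 0.14 (SE). Ifngr1, with −0.15 ± 0.11, and Ifngr2, with 0.03 ± 0.14, were likewise not called. The kinases Jak1, Jak2 and Tyk2 were all tested, and 0 were called.

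The transcription factors among the members were lower on average in IL17KO, and none passed the test. Irf7, which drives interferon production and is itself induced by it, had 17.2, 39.5 and 22.1 CPM in IL17KO, against 19.6, 19.4, 46.4 and 41.8 CPM in WT. Both groups split in the same way, with IL17KO replicate 2 and WT replicates 3 and 4 at 39.5 CPM or more and every other library at 22.1 CPM or less. Its log2 fold change was −0.28, with a 95% interval of −1.18 to 0.62. Irf9, the DNA-binding partner in the type I complex, had 17.4, 24.8 and 20.1 CPM in IL17KO, against 21.5, 20.8, 30.1 and 25.4 CPM in WT. Its interval of −0.63 to 0.16 was narrower. Stat2 averaged 28.8 ± 8.98 CPM in IL17KO and 30.8 ± 8.28 CPM in WT (SD, n = 3 and 4). Irf1, the early factor of the interferon-gamma response whose GAS-like match is shown above, averaged 25.1 ± 5.34 CPM in IL17KO and 30.3 ± 8.29 CPM in WT.

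The sensors of foreign nucleic acid all had estimates below 0 and overlapping groups. Zbp1, which binds left-handed nucleic acids and can start inflammatory cell death, had 7.12, 14.9 and 6.61 CPM in IL17KO, against 9.15, 10.5, 20.0 and 16.5 CPM in WT. Its log2 fold change of −0.56 ± 0.36 was the lowest of the 46 (95% interval −1.38 to 0.27), and IL17KO replicate 2 lay above WT replicates 1 and 2. Ifih1, the RNA sensor MDA5, had 19.9, 29.5 and 18.8 CPM in IL17KO, against 23.5, 23.7, 34.5 and 31.3 CPM in WT. Eif2ak2, the kinase PKR that halts translation, had 39.9, 56.4 and 35.1 CPM in IL17KO, against 50.8, 46.2, 64.7 and 48.7 CPM in WT. Its level per kilobase was the highest of the 4 sensors. Levels per kilobase here use the merged length of all annotated exons of a gene, not the length of a transcript. Dhx58, the related helicase LGP2, averaged 8.74 ± 2.99 CPM in IL17KO and 10.9 ± 4.07 CPM in WT (SD, n = 3 and 4).

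The IFIT family binds viral RNA and blocks its translation, and none of its 3 members was called. Ifit1 had 8.83, 22.6 and 15.8 CPM in IL17KO, against 13.4, 9.19, 31.0 and 16.4 CPM in WT. Ifit2 had 18.7, 42.2 and 33.1 CPM in IL17KO, against 30.5, 22.8, 47.9 and 38.9 CPM in WT. Ifit3 had 8.96, 28.6 and 20.1 CPM in IL17KO, against 15.2, 14.1, 34.3 and 21.1 CPM in WT. In each of these genes IL17KO replicate 1 was the lowest of the 7 libraries, WT replicate 3 was the highest, and the range within a genotype was at least 2.1-fold. Their log2 fold changes were −0.15, −0.16 and −0.14, with intervals reaching from −1.13 to 0.83 for Ifit1. The counts of Ifit3 are uncertain, since its transcript is 97.8% identical to that of Ifit3b. The 3 genes neighbour each other on chromosome 19.

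The Mx GTPases restrict viruses by binding their nucleocapsids. Mx1 had 2.05, 7.29 and 3.86 CPM in IL17KO, against 4.28, 2.97, 8.35 and 5.90 CPM in WT. Mx2, annotated as a polymorphic pseudogene, had 0.654, 2.82 and 1.69 CPM in IL17KO, against 1.33, 1.35, 2.97 and 2.19 CPM in WT. Within IL17KO the highest Mx2 library was 4.31 times the lowest, while the group means, 1.72 ± 1.08 CPM in IL17KO and 1.96 ± 0.784 CPM in WT, differed by less than 1 SD. The oligoadenylate synthetases, whose product activates the nuclease RNase L, gave 5 estimates below 0 with a median of −0.34 and 0 calls. Oas3 had 4.13, 10.9 and 3.99 CPM in IL17KO, against 5.61, 5.89, 12.3 and 11.6 CPM in WT. Oas2 had 3.56, 8.39 and 4.39 CPM in IL17KO, against 5.06, 5.84, 7.87 and 9.09 CPM in WT. Oasl2, the family's highest member per kilobase, had 27.3, 57.8 and 24.7 CPM in IL17KO, against 36.1, 36.5, 59.7 and 52.0 CPM in WT. Oasl2 thus had IL17KO replicate 2 level with the high WT libraries and the other IL17KO replicates below all 4 WT libraries. Oas1a averaged 8.05 ± 2.83 CPM in IL17KO and 10.2 ± 4.25 CPM in WT, and its transcript is 97.6% identical to that of Oas1g. Oasl1 averaged 4.75 ± 2.13 CPM in IL17KO and 5.67 ± 3.59 CPM in WT (SD, n = 3 and 4).

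**Figure D2:**
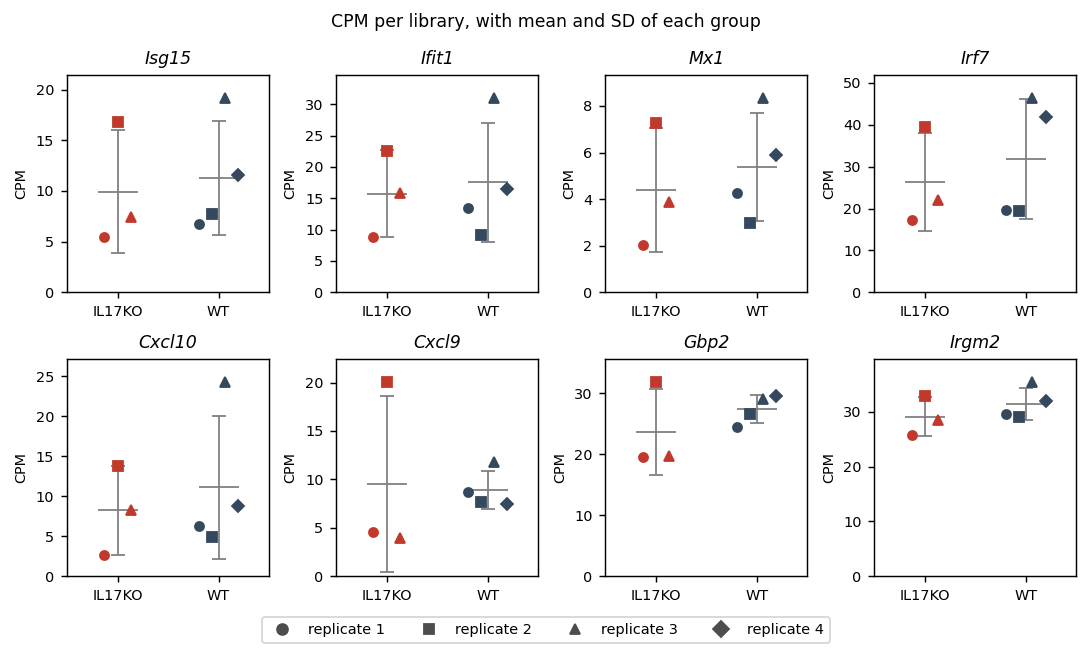
CPM of 8 members in each library (y axes start at 0; one symbol per replicate), with horizontal lines for the group mean and bars for the SD, IL17KO left of WT. IL17KO replicate 2 and WT replicate 3 are the high libraries of Isg15, Ifit1, Mx1 and Cxcl10, whereas Irgm2 lies between 25.8 and 35.5 CPM in all 7.

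Isg15, the ubiquitin-like protein attached to other proteins after interferon, had 5.48, 16.9 and 7.41 CPM in IL17KO, against 6.71, 7.73, 19.2 and 11.5 CPM in WT. The log2 fold change was −0.19 with a 95% interval of −1.23 to 0.86, and IL17KO replicate 2 lay above 3 of the 4 WT libraries. Its deconjugating enzyme Usp18, which also restrains the type I receptor, averaged 4.98 ± 1.83 CPM in IL17KO and 6.01 ± 3.28 CPM in WT, and Herc6, the mouse ISG15 ligase, had a log2 fold change of −0.13 ± 0.18. Trim30a (ENSMUSG00000030921), a mouse TRIM-family regulator of inflammatory signalling, had the smallest p of the 46. It had 15.5, 25.4 and 18.6 CPM in IL17KO, against 23.5, 23.1, 35.7 and 33.2 CPM in WT, and 1 IL17KO library lay inside the WT range. Its log2 fold change was −0.54 ± 0.22 (SE, 95% interval −1.04 to −0.04, edgeR unadjusted p = 0.0364 and adjusted p = 0.987).

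Parp14, Dtx3l and Parp9 neighbour each other on chromosome 16; Parp14 and Parp9 belong to the ADP-ribosyltransferase family, and Dtx3l is a ubiquitin ligase that pairs with Parp9. Parp14 had 39.7, 57.0 and 40.4 CPM in IL17KO, against 54.7, 48.4, 66.4 and 59.5 CPM in WT, with a log2 fold change of −0.32 ± 0.17. Its IL17KO replicate 2 lay inside the WT range and the other IL17KO libraries below it. Parp9 averaged 30.6 ± 3.38 CPM in IL17KO and 36.2 ± 6.30 CPM in WT, and Dtx3l 43.6 ± 6.86 CPM in IL17KO and 49.5 ± 5.00 CPM in WT. Exons of Parp9 and Dtx3l overlap on opposite strands over 458 bases. Trim25, the ligase that activates the RNA sensor RIG-I, had 64.4, 74.8 and 54.9 CPM in IL17KO, against 72.3, 73.1, 78.3 and 76.8 CPM in WT. Its WT libraries differed by at most 1.08-fold, and it had the smallest spread of the members.

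The remaining effectors were 9 genes, each with an estimate below 0 and none called. Rtp4, a chaperone with antiviral activity, had 9.61, 16.1 and 11.6 CPM in IL17KO, against 12.4, 15.0, 22.8 and 18.3 CPM in WT, with a log2 fold change of −0.46 ± 0.24. Samhd1, which degrades the nucleotides needed for viral DNA synthesis, took the most counts of these genes in every library and had 79.96, 97.7 and 75.8 CPM in IL17KO, against 87.0, 83.9, 113.6 and 99.5 CPM in WT. Its range was narrow, at 1.29-fold within IL17KO and 1.35-fold within WT. Rsad2, the antiviral enzyme viperin, had 11.1, 29.1 and 24.0 CPM in IL17KO, against 18.6, 16.7, 37.3 and 24.7 CPM in WT. Cmpk2, a nucleotide kinase next to Rsad2 on chromosome 12, had 3.89, 9.01 and 8.96 CPM in IL17KO, against 7.26, 5.08, 11.9 and 8.42 CPM in WT. In both of these genes IL17KO replicate 1 was the lowest of the 7 libraries and WT replicate 3 the highest. Bst2, the tetherin that holds virions at the cell surface, averaged 26.1 ± 7.58 CPM in IL17KO and 27.6 ± 10.4 CPM in WT. Per kilobase of merged exons Bst2 was the highest of the 46, at 29.9 CPM per kilobase over all libraries. Isg15 (14.2), Trim25 (12.3) and Ifit3 (11.6) came next, and Mx2 was the lowest at 0.514. No ranking by transcript length was made. Sp100, a nuclear body protein, averaged 46.5 ± 10.4 CPM in IL17KO and 52.1 ± 6.49 CPM in WT, and Xaf1, a pro-apoptotic factor, 7.50 ± 2.04 CPM in IL17KO and 8.94 ± 2.05 CPM in WT. Ifi44 averaged 8.07 ± 5.81 CPM in IL17KO and 9.78 ± 2.56 CPM in WT, and Ifi35, whose log2 fold change of −0.03 ± 0.18 was the nearest to 0 of all, 14.0 ± 1.33 CPM in IL17KO and 14.2 ± 2.97 CPM in WT.

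Of the interferon-gamma members the chemokines varied most between libraries and Irgm2 the least. Cxcl10 and Cxcl9 are ligands of Cxcr3 that draw in T and natural killer cells. Cxcl10 (ENSMUSG00000034855) had 2.66, 13.8 and 8.30 CPM in IL17KO, against 6.34, 4.97, 24.3 and 8.83 CPM in WT. Its range was 5.17-fold within IL17KO and 4.89-fold within WT, so the log2 fold change of −0.43 ± 0.64 carried the widest interval of the members (−1.90 to 1.04). Cxcl9 had 4.58, 20.1 and 3.95 CPM in IL17KO, against 8.69, 7.67, 11.8 and 7.46 CPM in WT. A single library, IL17KO replicate 2, lay above every WT library, while the other IL17KO libraries lay below them all; the log2 fold change was 0.10 ± 0.53.

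The guanylate-binding proteins attack the vacuoles and membranes of intracellular pathogens, and their 4 members sit together on chromosome 3. Gbp2, the highest of them per kilobase, had 19.6, 31.8 and 19.7 CPM in IL17KO, against 24.5, 26.6, 29.0 and 29.6 CPM in WT. Its IL17KO replicate 2 was the highest of the 7 libraries and the other IL17KO libraries were the lowest. Gbp5, which had the smallest p of the interferon-gamma members, had 3.93, 5.92 and 6.57 CPM in IL17KO, against 6.16, 5.13, 8.06 and 8.24 CPM in WT, with a log2 fold change of −0.34 ± 0.24 and overlapping groups. Gbp3 had a log2 fold change of −0.21 ± 0.20, and Gbp7 averaged 25.2 ± 4.44 CPM in IL17KO and 26.5 ± 2.93 CPM in WT. The immunity-related GTPases act on the same vacuoles, Iigp1 as an effector and Irgm1, Irgm2 and Igtp as its regulators in the mouse. Irgm1 had 21.9, 28.5 and 25.4 CPM in IL17KO, against 25.0, 24.5, 35.3 and 32.5 CPM in WT. Irgm2, the highest of the 4 per kilobase, had 25.8, 32.9 and 28.5 CPM in IL17KO, against 29.5, 29.0, 35.5 and 31.9 CPM in WT. The 7 libraries of Irgm2 thus lay close together. Iigp1 averaged 19.8 ± 5.66 CPM in IL17KO and 24.0 ± 4.47 CPM in WT, and Igtp 11.7 ± 2.03 CPM in IL17KO and 13.1 ± 2.78 CPM in WT. Socs1, the feedback inhibitor of the JAK kinases, had 2.41, 3.53 and 2.75 CPM in IL17KO, against 2.16, 2.54, 5.28 and 3.15 CPM in WT, with a log2 fold change of −0.18 ± 0.32.

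The members moved together between libraries of the same genotype. Each member's log2 CPM was set against its own mean over the 7 libraries, and the mean over the 46 members was −0.55, 0.36 and −0.25 in IL17KO replicates 1 to 3, against −0.17, −0.22, 0.57 and 0.26 in WT replicates 1 to 4. WT replicate 3 was the highest library for 37 members, WT replicate 4 for 5 and IL17KO replicate 2 for 4. IL17KO replicate 1 was the lowest for 30 members and IL17KO replicate 3 for 12. IL17KO replicate 2 was above IL17KO replicate 1 in 46 of 46 members, with a median ratio of 1.67, whereas 52.2% of all tested genes were higher in it. Likewise, WT replicate 3 was above WT replicate 1 in 46 of 46 members, with a median ratio of 1.56, against 49.3% of tested genes. Between genotypes, IL17KO replicate 2 was above WT replicate 2 in 46 of 46 members and above WT replicate 3 in 8 of 46. WT replicate 2 in turn was above IL17KO replicate 1 in 45 of 46, so these 2 IL17KO libraries lay on either side of it in nearly every member.

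**Figure D3:**
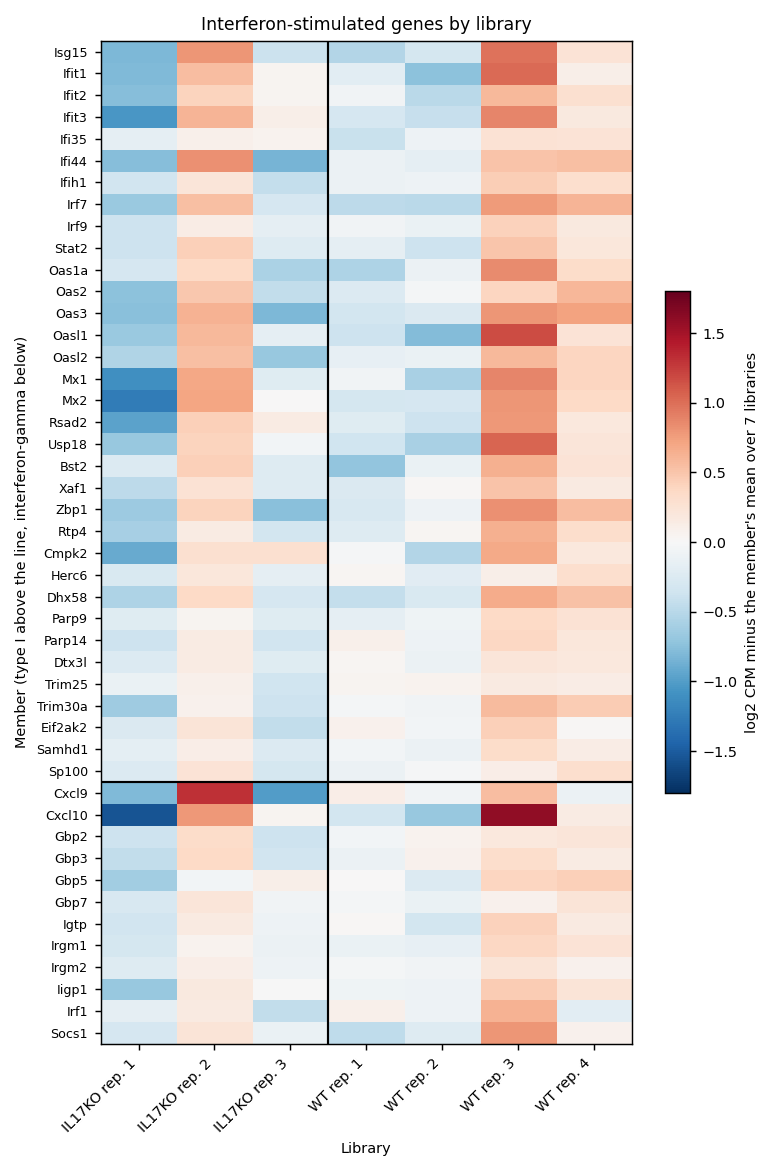
Log2 CPM of each member minus its mean over the 7 libraries (colour, red above and blue below), with members in rows and libraries in columns, IL17KO left of WT. The columns of WT replicate 3, IL17KO replicate 2 and WT replicate 4 are mostly red, while that of IL17KO replicate 1 is blue in all 46 rows.

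This spread was wide for the table. The SD of log2 CPM within genotypes had a median of 0.39 over the members and 0.24 over all tested genes, and 38 of 46 members lay above that 0.24. The 90th percentile of tested genes was 0.56, and 15 of 46 members exceeded it. The widest were Cxcl10 (1.08), Cxcl9 (0.84), Oasl1 (0.77) and Mx2 (0.76), and the narrowest Trim25 and Irgm2 (0.15 each). Type I members had a median SD of 0.51 and interferon-gamma members 0.32. Members with and without an ISRE-like match in a window had similar values, 0.37 over 20 members and 0.34 over 16.

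Setting the classes side by side, the median log2 fold change was −0.25 for the 34 type I members and −0.21 for the 12 interferon-gamma members. Single libraries moved both medians: they were −0.12 and −0.08 without WT replicate 3, −0.10 and −0.07 without IL17KO replicate 1, and −0.53 and −0.42 without IL17KO replicate 2. The mean relative level of the type I members was −0.56, 0.37 and −0.27 in IL17KO, against −0.21, −0.24, 0.60 and 0.30 in WT. For the interferon-gamma members it was −0.51, 0.32 and −0.21 in IL17KO, against −0.08, −0.16, 0.50 and 0.14 in WT. In both classes the libraries above 0 were IL17KO replicate 2 and WT replicates 3 and 4. The difference between genotypes was −0.27 for type I and −0.23 for interferon-gamma members, smaller than the pooled SD within genotypes of 0.44 and 0.35. No test is given for these means, because the members were named with results of these data known.

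Members differed from each other in how the low IL17KO libraries compared. The ratio of IL17KO replicate 3 to IL17KO replicate 1 was 1.77 to 2.25 in the IFIT family, 1.89 and 2.58 in Mx1 and Mx2, 2.17 in Rsad2, 2.31 in Cmpk2 and 3.12 in Cxcl10. It was below 1 in 12 members, which were Irf1, Oas1a, Trim25, Cxcl9, Eif2ak2, Oasl2, Zbp1, Ifih1, Samhd1, Sp100, Ifi44 and Oas3 in rising order, from 0.83 to 0.97. The ratio of IL17KO replicate 2 to replicate 1 was above 1 for every member, from 1.16 in Trim25 to 5.17 in Cxcl10. These ratios compare single libraries and have no replicate check.

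**Figure D4:**
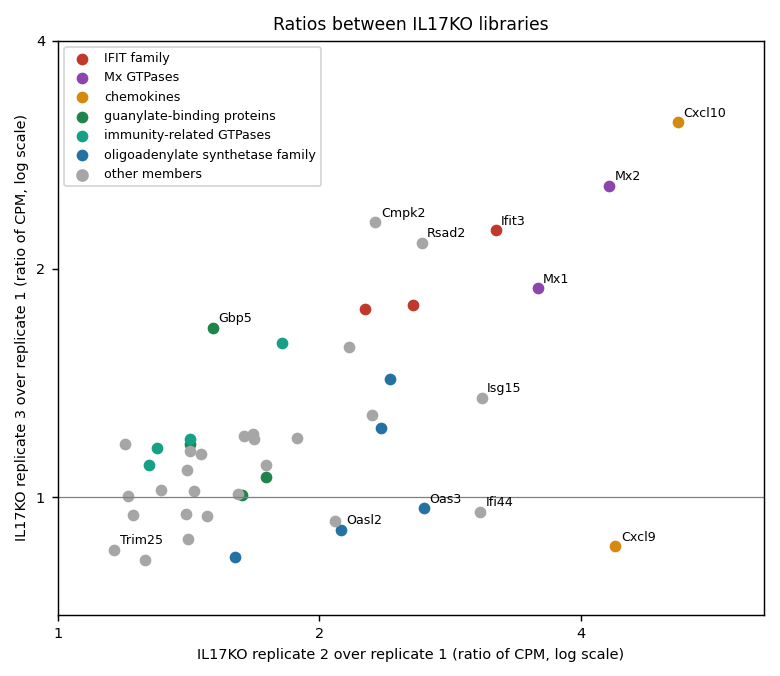
Ratio of CPM in IL17KO replicate 2 over replicate 1 (x axis) and replicate 3 over replicate 1 (y axis) for the 46 members, both on log scales, coloured by role. All members lie right of 1 on the x axis, while on the y axis Cxcl10, the Mx genes, the IFIT genes, Rsad2 and Cmpk2 lie well above 1, and 12 members lie below it, from Irf1 (0.83) to Oas3 (0.97).

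Other interferon-stimulated genes, outside the 46, also had estimates mostly below 0. Of 40 such genes 38 were tested, 36 had a log2 fold change below 0, the median was −0.25 and 0 were called. Those with the smallest p were Oas1g, the close copy of Oas1a (−0.69 ± 0.37), Ddx60, a helicase-like antiviral protein (−0.43 ± 0.24), and Ifi27, a small mitochondrial protein (−0.20 ± 0.11). The exceptions in sign, Gbp10 (1.14) and Gbp4 (0.01), were named after their values were seen. The genes that sense nucleic acid and induce interferon gave 14 tested, 10 below 0 and 0 called. In that group Ikbke, a kinase that activates Irf3 and Irf7, had 12.6, 17.2 and 10.5 CPM in IL17KO, against 16.5, 14.4, 23.6 and 17.3 CPM in WT. Sting1, the adaptor of cytosolic DNA sensing, had 23.4, 31.2 and 20.99 CPM in IL17KO, against 26.4, 30.6, 46.5 and 30.8 CPM in WT, and Ddx58, the RNA sensor RIG-I, 29.6, 45.2 and 24.6 CPM in IL17KO against 36.4, 35.8, 54.0 and 44.6 CPM in WT. Ikbke, Sting1 and Ddx58 had IL17KO replicate 2 as the highest IL17KO library and WT replicate 3 as the highest WT library, as most members did. By contrast, the highest WT library was WT replicate 4 for Ddx60 and WT replicate 2 for Ifi27.

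Markers of cell types also differed between the libraries, and in bulk tissue fewer cells of a type and less RNA per cell cannot be told apart. The 12 macrophage and monocyte markers, all tested and 0 called, had a mean log2 CPM of 6.99, 7.30 and 6.74 in IL17KO, against 6.73, 6.99, 7.50 and 7.20 in WT, highest in IL17KO replicate 2 and WT replicates 3 and 4. Their summed level was 4723, 5113 and 4713 CPM in IL17KO, against 3625, 4616, 5243 and 3995 CPM in WT, so that by this sum WT replicate 4 was among the low libraries, and none was at 0. The 18 skeletal muscle markers, all tested and 0 called, all had a log2 fold change above 0, with a median of 0.64. They had a mean log2 CPM of 11.15, 10.35 and 12.12 in IL17KO, against 10.82, 11.00, 9.28 and 11.17 in WT, and were lowest in WT replicate 3 and IL17KO replicate 2. In a fit with this muscle level as covariate, 30 of 46 members stayed below 0 and the medians were −0.09 for type I and −0.04 for interferon-gamma members. The part of muscle in the members' levels was not tested beyond that fit, and that of macrophages was not tested.

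**Figure D5:**
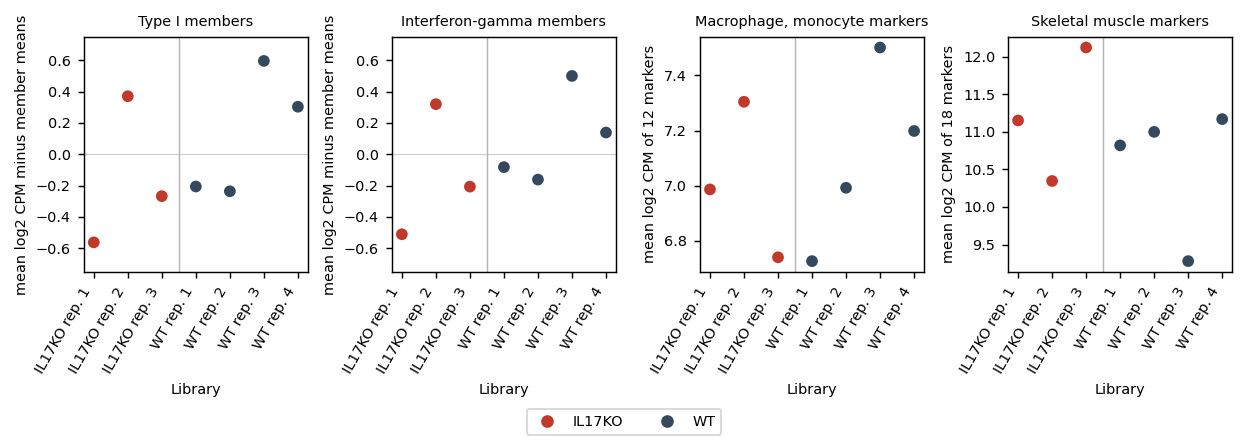
Mean level per library of the 34 type I members and 12 interferon-gamma members (log2 CPM relative to each member's mean), the 12 macrophage and monocyte markers and the 18 skeletal muscle markers (mean log2 CPM), IL17KO left of WT. WT replicate 3 is the highest of the 7 libraries in the first 3 panels and the lowest in the muscle panel.

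Markers of T and natural killer cells were low, as was Siglech. Which cells of this tissue can make interferon was not tested. The T and natural killer cell markers had 3 of 14 genes tested and summed to between 5.60 and 17.9 CPM in IL17KO and between 10.7 and 13.8 CPM in WT, most of it from Cd4, which macrophages can also express, with 0 called. Cd3e was at most 0.235 CPM in IL17KO and 0.720 CPM in WT. Siglech, the defining marker of plasmacytoid dendritic cells, a main source of type I interferon, was at 0.235 to 0.577 CPM in IL17KO and 0.138 to 0.297 CPM in WT. The list of 12 such markers, with 8 tested and 0 called, summed to 538 to 892 CPM in IL17KO and 449.7 to 674.6 CPM in WT, mostly from Tcf4 and the muscle gene Cox6a2, which other cells express. Others also lay above Siglech: Irf8 averaged 41.4 CPM in IL17KO and 43.5 CPM in WT, and Il3ra 16.6 and 17.5 CPM. Of the 8 tested, 6 had a log2 fold change below 0, and 1, Lair1, had an unadjusted p under 0.05. Lair1 was at 31.2 to 32.4 CPM in IL17KO, wholly below 34.9 to 45.6 CPM in WT (−0.35 ± 0.12, edgeR unadjusted p = 0.0167 and adjusted p = 0.987). Neutrophil markers had 5 of 10 genes tested and 0 called, and summed to 47.2 to 99.8 CPM in IL17KO and 78.2 to 305.9 CPM in WT, highest in WT replicate 3. All 5 tested had a log2 fold change below 0, with a median of −1.08, and 3 had an unadjusted p under 0.05, while Ly6g was at 0 in every IL17KO library and at most 0.054 CPM in WT. Endothelial markers, all 10 tested and 0 called, summed to 696 to 1005 CPM in IL17KO and 810 to 975 CPM in WT. Their part in the members' levels was not tested.

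The counts over the members differed when a library was left out and between methods. Leaving out IL17KO replicate 2, the high IL17KO library, gave 0 of 46 calls (0.0903% of tested genes). Then 16 of 46 members had an unadjusted p under 0.05 (7.9% of tested genes), and 20 of 46 had groups that did not overlap (18.6%). That library is called high from the members' own levels. Its omission lowers the IL17KO side by construction, so these counts are no support for a difference. Omitting WT replicate 3 or IL17KO replicate 1 instead left 31 and 33 of 46 estimates below 0, against 46 without IL17KO replicate 2. Limma voom with quality weights weighted IL17KO replicate 1 at 5.31 and WT replicate 3 at 0.386, and also differs from edgeR in its test. It had 21 of 46 members at an unadjusted p under 0.05 (9.36% of 15399 tested genes). DESeq2 had 1 of 46 (1.95% of 28443 genes). The 2 shares are not over the same genes, since DESeq2 took every gene with a count.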

How the data were processed

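Polyadenylated RNA of 3 IL17KO and 4 WT libraries was analysed from a single deposited table. Read counts per gene were made by the authors with bcl2fastq, FastQC, cutadapt, TopHat and HTSeq on GRCm39, per the submitters' processing notes, and the kit was a stranded mRNA kit, per the labels' protocols. The sources used here give no versions, no settings and no strand mode for the counting. The second deposited value per library is a normalized signal, found to be the count over 1 size factor, and DESeq2 is named in the submitters' processing notes. Columns carry library names, which were matched to the samples through the labels' library names. Of 55414 rows, 6250 are blank and were left out.

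Differences were tested on the counts by edgeR 4.0.16 under R 4.3.3 (quasi-likelihood test, two-sided, TMM scaling, filterByExpr, robust dispersion, Benjamini-Hochberg adjusted p under 0.05 over the 15399 genes tested). The SE is the log2 fold change divided by the root of the F statistic, and levels are CPM on TMM-scaled library sizes. Log2 CPM used a prior count of 2. Alternatives were DESeq2 1.42.0, limma 3.58.1 voom with quality weights, limma-trend on log2 of the deposited signal plus 1, RLE scaling, genes unfiltered or filtered at 1 CPM in at least 3 libraries, a block for the replicate number, a covariate for the muscle level, and the omission of each library or of a pair. The edgeR procedure was tested on simulated data. It called 59 of 100 genes changed 2-fold, 83 of 100 changed 4-fold and 10 of 15199 unchanged genes, and 0 of 15399 with none changed. Changes under 2-fold, the size of all members' estimates, were not simulated. The 0 calls among the members therefore do not show that they are unchanged. The members, the gene lists and the rule for named genes were chosen with earlier results of these data known. That rule accounts for all 46 members. Per role it takes the member with the smallest p and that with the highest CPM. It also takes the 3 smallest p in roles of more than 4 members, and the chemokines, IFIT and Mx genes in full. From each other list it takes up to 3 genes with the smallest p, besides the interferons and receptors. The text departs from it in places. Irf7, Ifih1, Isg15, Rsad2, Cmpk2 and Gbp2 are given by library outside the rule. Stat2, Gbp7 and Xaf1, which the rule takes, are given by mean and SD only. GENCODE M21 transcripts and RefSeq promoter windows, both for GRCm38, served for gene order, lengths, overlaps, near-identical copies (BLAST 2.17.0, at least 95% identity over 80% of the length) and sequences, since they are of an older build than the counts. One gene that this rule takes is not reported here.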

Additional observations from a re-analysis of the deposited data

How the results depend on the processing

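The count of members called stayed 0 under all 16 alternatives, as did that of other pathway genes called, and the class medians kept their sign. They moved by less than the SD between libraries, 0.44 for type I and 0.35 for interferon-gamma members. That SD exceeds the size of the medians themselves, −0.25 and −0.21, so this does not show them to be stable. Omission of single libraries and the muscle covariate changed both medians, as given above. Over the whole table, 42 genes were called without a filter, 2 with the replicate block, 58 by DESeq2, 65 by limma voom with quality weights, and 8 to 21 with each library left out in turn, against 24. Members at an unadjusted p under 0.05 numbered 21 by limma voom (9.36% of tested genes), against 1 by edgeR with all libraries (3.04%). They numbered 0 with the replicate block (1.74%) and with the muscle covariate (3.81%). Omission of WT replicate 3 together with IL17KO replicate 3 also gave 0 (3.31%). With each library left out they numbered 0 to 16, while the share of tested genes ran from 1.78% to 7.9%. Members whose groups did not overlap numbered 20 without IL17KO replicate 2 (18.6% of tested genes) and 0 with each other library left out. The share of tested genes was 3.89% with all libraries and was not computed for the other omissions. For the block, deviations of IL17KO and WT libraries with the same number correlated at 0.14, −0.30 and −0.56. IL17KO replicates 2 and 3 correlated best with another number. The numbers are those of the sample titles, and the library names number every WT library and IL17KO replicate 3 differently. Whether either numbering pairs the samples is not known, and correlations of so few libraries cannot decide it. The class medians were −0.19 and −0.22 with the replicate block.

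Of 736 comparisons of a member's log2 fold change under an alternative, 670 kept its sign and 66 did not. With the muscle level as a covariate it was 0.19 for Isg15, 0.24 for Ifit1, 0.021 for Ifit2, 0.17 for Ifit3, 0.025 for Ifi35, 0.10 for Stat2, 0.20 for Oasl1, 0.0099 for Mx1, 0.071 for Mx2, 0.059 for Rsad2, 0.10 for Usp18, 0.16 for Bst2, 0.0092 for Cmpk2, 0.21 for Cxcl10 and 0.11 for Socs1. Leaving out WT replicate 3 together with IL17KO replicate 3 gave 0.36 for Isg15, 0.26 for Ifit1, 0.15 for Ifit3, 0.021 for Ifi35, 0.10 for Ifi44, 0.061 for Irf7, 0.17 for Stat2, 0.13 for Oas1a, 0.32 for Oasl1, 0.028 for Oasl2, 0.076 for Mx1, 0.081 for Mx2, 0.15 for Usp18, 0.27 for Bst2, 0.28 for Cxcl10, 0.067 for Irf1 and 0.17 for Socs1. With the replicate block it was 0.078 for Ifi35, 0.049 for Bst2 and −0.39 for Cxcl9. Cxcl9 was at −0.65 by limma voom and −0.30 by limma-trend. With each library left out in turn the range was −0.81 to 0.18 for Isg15, −0.51 to 0.26 for Ifit1, −0.44 to 0.10 for Ifit2, −0.54 to 0.20 for Ifit3, −0.14 to 0.059 for Ifi35, −0.38 to 0.062 for Stat2, −0.67 to 0.23 for Oasl1, −0.87 to 0.046 for Mx1, −0.76 to 0.19 for Mx2, −0.48 to 0.12 for Rsad2, −0.57 to 0.14 for Usp18, −0.34 to 0.15 for Bst2, −0.35 to 0.13 for Cmpk2, −1.06 to 0.46 for Cxcl9, −1.03 to 0.27 for Cxcl10, −0.22 to 0.036 for Gbp7 and −0.35 to 0.13 for Socs1. The cause was not tested.

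The lowest count of a member in any library was 16, above the floor of 3 counts that the interferon ligands did not reach; the effect of depth on the members' comparison was not tested.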
